A study of Mus musculus with 7 samples.

Results

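The U2 small nuclear RNA (snRNA) entries comprised every transcript listed in the CIRS-seq count files under the symbol U2, AC120136.1 or AC120136.2. These were 45 of the 26827 transcripts, 43 of them named U2. CIRS-seq locates chemically modified bases by the position at which reverse transcription (RT) stops, and it was made in lysates of E14 mouse embryonic stem cells (ESCs) of strain 129/Ola. The lysates were treated with Proteinase K before the reagents were added, so all groups were probed after deproteinisation. DMS was pooled from aliquots at 50 to 200 mM (2 minutes), CMCT from aliquots at 10 to 50 mM (20 minutes), and the non-treated control (NT) from both 0 mM aliquots. Each group had 2 replicates, described as biological, and 1 ribosome-depleted RNA-seq library of the same line stood beside them. DMS and CMCT were compared with the same 2 NT libraries, so the comparisons are not independent of each other. Each library listed 140464132 to 247797868 RT stops when every position was counted once per gene. These sums exceed the number of reads the authors report for each treatment, so they are not numbers of separate reads. The ESC genes Pou5f1, Nanog and Sox2 had 3058 to 19876 RT stops in every library.

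U2 is the snRNA of the major spliceosome that pairs with the branch site of the intron through the sequence GUAGUA near its 5′ end. A ring of Sm proteins assembles on a U-rich run farther downstream, and the SF3A and SF3B protein complexes bind around it. Its 5′ part is dense in pseudouridines and 2′-O-methylated riboses. DMS modifies the pairing face of unpaired A and C, and CMCT that of unpaired U and G. In mammals U2 is transcribed from several near-identical genes, and many truncated or diverged copies lie elsewhere in the genome.

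Of the 45 copies, 44 were found in the GENCODE vM1 annotation of mm9, each as an snRNA gene of 1 exon, and ENSMUST00000122571 was not. They lay on 16 chromosomes and were 82 to 194 bases long. AC120136.2 (ENSMUST00000175506, chr1:72283520-72283710, + strand) had the same total of RT stops as ENSMUST00000082922, the highest of all copies, and served as the reference for numbering. Its 191 bases are shown with the GTAGTA motif (positions 33 to 38) and the Sm run (positions 100 to 106) in capitals, because most results below refer to positions in it.
AC120136.2: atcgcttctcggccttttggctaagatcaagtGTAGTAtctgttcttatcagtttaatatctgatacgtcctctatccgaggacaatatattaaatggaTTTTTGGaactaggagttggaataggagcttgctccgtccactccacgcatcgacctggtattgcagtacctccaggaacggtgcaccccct
The letters GTAGTA stood within 5 bases of position 33 in 29 of the 44 copies with a sequence, and a run of at least 5 T followed by GG stood anywhere in 21. ENSMUST00000083973 holds GTAGTA only in its 3′ part. The U2 gene ENSMUST00000082922 (chr11:83085000-83085190, + strand) had the same 191 bases, and AC120136.1 (ENSMUST00000175370, chr1:72290787-72290977, + strand) differed from them by C186A (reference base, position from the 5′ end, base of the copy). The mm9 sequences of the copies that differ within the measured part show the differing bases in capitals. ENSMUST00000082768 (chr11:101503062-101503252, + strand) stands for 4 identical copies on chromosome 11, ENSMUST00000101806 (chr1:72272814-72273004, + strand) lies beside AC120136.2, ENSMUST00000082748 (chr8:53422269-53422459, - strand) shares a base with each of these, and ENSMUST00000082838 (chrX:13892527-13892717, - strand) has 9 differences.
ENSMUST00000082768: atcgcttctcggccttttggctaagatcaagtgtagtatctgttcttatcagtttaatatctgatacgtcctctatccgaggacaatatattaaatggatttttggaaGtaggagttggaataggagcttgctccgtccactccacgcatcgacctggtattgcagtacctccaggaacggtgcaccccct
ENSMUST00000101806: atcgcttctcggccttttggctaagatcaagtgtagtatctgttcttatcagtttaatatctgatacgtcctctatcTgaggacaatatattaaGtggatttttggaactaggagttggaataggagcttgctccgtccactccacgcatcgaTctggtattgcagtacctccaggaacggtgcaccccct
ENSMUST00000082748: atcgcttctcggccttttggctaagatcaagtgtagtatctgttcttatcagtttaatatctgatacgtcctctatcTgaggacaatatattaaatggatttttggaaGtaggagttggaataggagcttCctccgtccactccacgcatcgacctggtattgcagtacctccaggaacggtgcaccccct
ENSMUST00000082838: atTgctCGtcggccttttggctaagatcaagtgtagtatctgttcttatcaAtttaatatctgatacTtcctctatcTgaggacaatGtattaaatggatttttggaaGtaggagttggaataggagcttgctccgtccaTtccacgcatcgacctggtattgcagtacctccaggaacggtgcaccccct
A pair of shorter copies follow U2 closely at the 5′ end and then depart from it. Their first 75 bases, from chr15:48382854-48382986 and chr5:124078210-124078356 (both + strand), are given for the comparison with DMS, again with capitals at the differences.
ENSMUST00000083808: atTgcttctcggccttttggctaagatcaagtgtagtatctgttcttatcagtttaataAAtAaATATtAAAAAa
ENSMUST00000122603: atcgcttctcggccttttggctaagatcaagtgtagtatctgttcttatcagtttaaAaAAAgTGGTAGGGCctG

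Most RT stops of the copies lay where the copies share their sequence, and over much of it the copies closest to AC120136.2 had equal or nearly equal counts. AC120136.2 held 377570 and 135786 RT stops in the NT replicates, 629734 and 593058 in DMS, and 466150 and 703793 in CMCT. ENSMUST00000082922, with the identical sequence, had counts within 1 of these at all 166 measured positions of every library. AC120136.1 was within 1 count at 149 of the 166 positions and differed by at most 77. Copies could differ in their counts also at bases that they share, before a differing base. ENSMUST00000083298, which first differs at position 67, had 61781 RT stops at position 37, against 588945 in AC120136.2. At position 1, farther from that difference, it had 64145 against 64164. The 8 copies with the most RT stops held 66.9% of the RT stops of all copies, and the first 12 held 91.9%. Positions whose following 25 bases occur once in mm9 held 2.21% of these RT stops, whereas 92.8% lay at positions whose 25 bases also occur in AC120136.2. How reads with several places in the genome were assigned is not given in the sources used here. The copies are not replicates of each other, and most of the RT stops of AC120136.2 are also listed in its near-identical copies.

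The copies with 1 to 3 differing bases departed from AC120136.2 in the counts before their differing bases. In ENSMUST00000082768, which differs at C109G, the counts were within 1 of AC120136.2 at 110 of 166 positions, and all departures lay between positions 53 and 108. Between positions 79 and 109 it held 84.0% of the RT stops of AC120136.2, against 99.4% between 48 and 78. At position 109 itself both copies had 7012 RT stops. In ENSMUST00000101806 (C78T, A95G and C154T) the counts departed from position 21 on. It held 100% of the RT stops of AC120136.2 over positions 1 to 20, 97.7% over 21 to 47, 36.4% over 48 to 78 and 77.2% over 79 to 109. At position 73, 5 bases before its first difference, it had 767 RT stops against 14648 in AC120136.2. ENSMUST00000082748, which also has C78T, had 790 there.

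**Figure D1:**
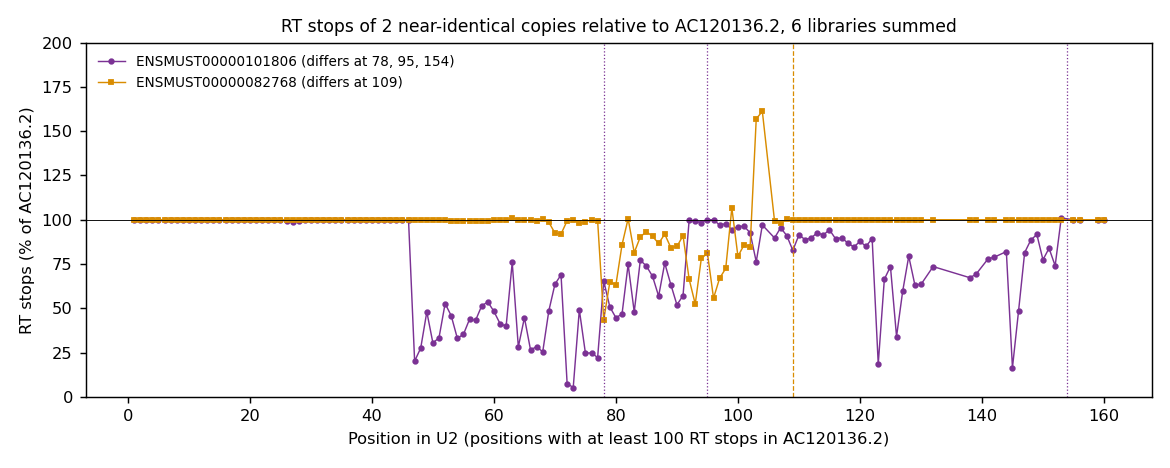
RT stops of ENSMUST00000101806 and ENSMUST00000082768 as a percentage of those of AC120136.2 at each position (6 libraries summed, positions with at least 100 RT stops in AC120136.2; vertical lines mark the differing bases). ENSMUST00000101806 holds at most 77.1% at every position from 47 to 91 and 5.24% at position 73, and ENSMUST00000082768 is at 100% again from position 109 on.

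Along AC120136.2, the RT stops concentrated in and around the branch site recognition motif. The 166 measured positions ended at position 166, and the last 25 bases carried none in any library. The U at position 37, within GUAGUA, held 22.1% and 18.6% of the RT stops of the copy in the NT replicates, 13.5% and 4.72% in DMS, and 26.5% and 34.7% in CMCT. It was the highest position in 5 of the 6 libraries, and in DMS replicate 2 the A at position 30 was higher, with 18.4%. The 6 bases of the motif together held 39.8% and 33.0% in NT, 29.4% and 12.1% in DMS, and 42.0% and 52.0% in CMCT. Here the DMS libraries lay below and the CMCT libraries above both NT libraries. The next positions in NT were U34 (11.6% and 5.71%), C28 (10.0% and 6.56%), U27 (9.99% and 5.73%) and A30 (2.34% and 5.61%). Of the 6 motif bases, A38 alone passed the position test described below, under DMS (0.625% and 0.683% in NT, 1.42% and 1.62% in DMS, log2 change 1.22 ± 0.17 (SE, n = 2 per group), edgeR adjusted p = 0.0163). A35, the other A of the motif, was higher in both DMS libraries without passing (0.264% and 0.615% against 1.46% and 3.44%, edgeR adjusted p = 0.0635).

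**Figure D2:**
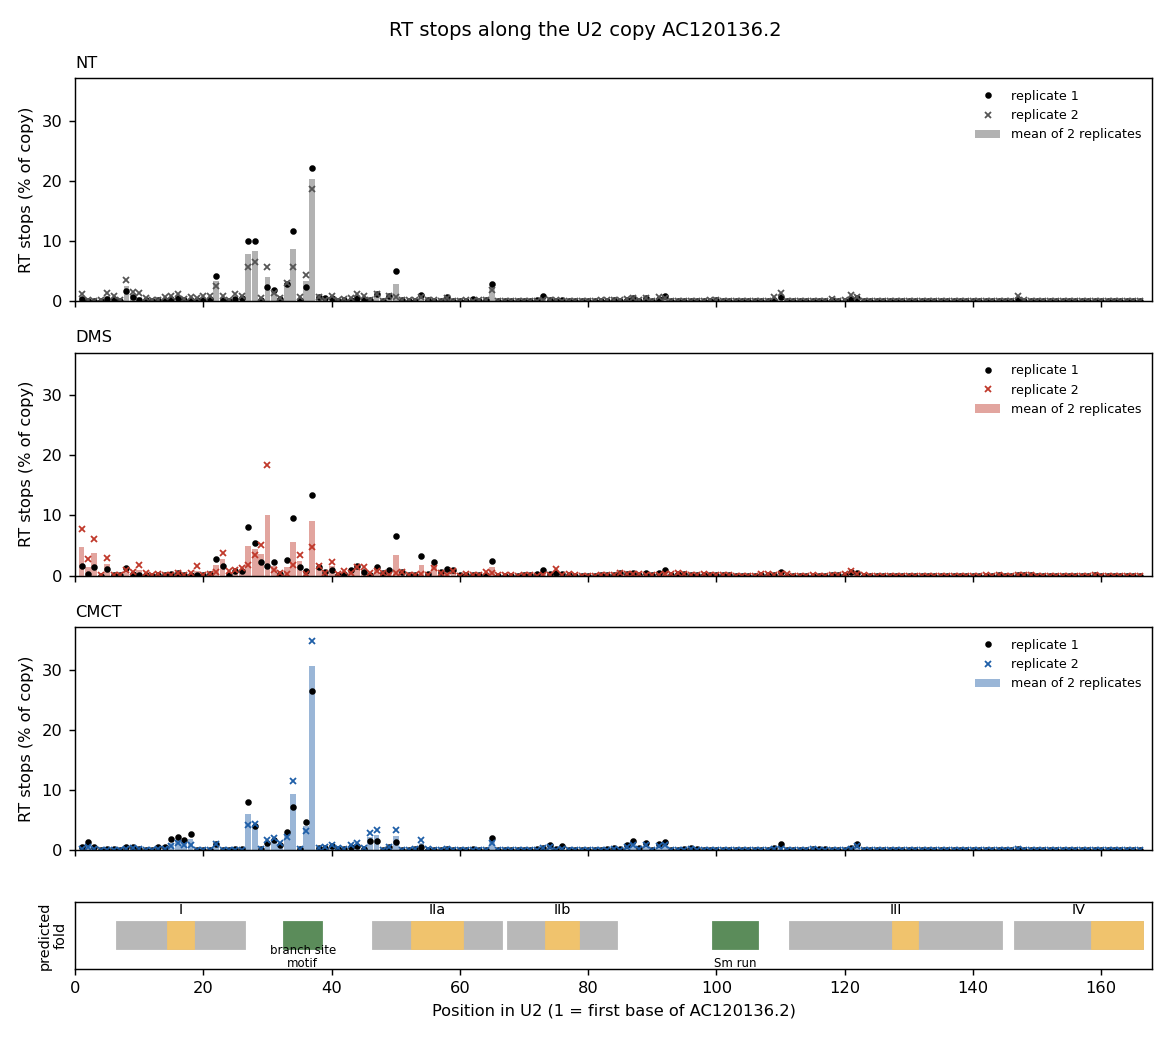
Share of the RT stops of AC120136.2 at each position in NT, DMS and CMCT (bars, mean of 2 replicates; dots and crosses, replicates), above the predicted stem-loops (grey, with loops in yellow) and the branch site motif and Sm run (green). Position 37 holds 18.6% to 34.7% of the RT stops in NT and CMCT, and the DMS replicates differ most at position 30.

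The share of RT stops at A was highest in the DMS libraries. Positions with A held 6.46% and 14.1% of the RT stops of AC120136.2 in NT, 19.5% and 51.6% in DMS, and 5.86% and 4.50% in CMCT. Positions with U held 63.9% and 52.5% in NT, 53.2% and 21.2% in DMS, and 72.5% and 75.5% in CMCT. For A the DMS libraries lay above all others, and for U the CMCT libraries did. The 2 DMS replicates differed widely, however, and with 2 libraries a group a two-sided exact permutation test of such shares cannot go below p = 0.333. Positions with C held 20.6% and 18.6% in NT and 19.4% and 20.9% in DMS, so that these groups overlapped. In CMCT they held 10.5% and 11.3%, below both NT libraries.

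The position test compared each position's share of the RT stops of its copy between treatments, over all positions with at least 100 RT stops in the transcriptome. Of the 148 tested positions of AC120136.2, 15 were higher in DMS than in NT and 3 lower. Both are smaller shares than over all positions tested (13.7% and 8.63%). ENSMUST00000082922, with the same sequence and counts within 1, had 14 called higher, and ENSMUST00000082768 had 13. The 15 of AC120136.2 were 14 A and 1 C. After C3, the largest rises lay in the loop of stem-loop IIa, the hairpin downstream of the branch site motif. A59 rose from 0.0336% and 0.0383% in NT to 0.862% and 0.815% in DMS (log2 change 4.55 ± 0.22, edgeR adjusted p = 0.00509), and A56 from 0.0585% and 0.115% to 2.33% and 1.27% (4.38 ± 0.54, edgeR adjusted p = 0.0121). A57, between them, was higher by 2.52 ± 0.41 on the log2 scale (edgeR adjusted p = 0.0208). In the same loop, U53, U54, U55, U58 and U60 did not pass, with log2 changes of -0.82 to 1.09. Thus in this loop of 8 bases the 3 A passed and the 5 U did not. A75 in the loop of stem-loop IIb rose from 0.0808% and 0.122% to 0.495% and 1.04% (2.92 ± 0.59, edgeR adjusted p = 0.0344), and A29, before the branch site motif, from 0.218% and 0.574% to 2.20% and 5.11% (3.21 ± 0.70, edgeR adjusted p = 0.042). A85, A93, A94 and A95 rose in the stretch between stem-loop IIb and the Sm run, with log2 changes of 2.09 to 2.21. The others higher were C3, A38, A160, A48 and A51 in the stem of IIa, and A126 in that of III. Those lower were G63, A145 and G147. In ENSMUST00000101806, A29, A56 and A59 also passed, but A75 did not (1.39 ± 0.49, edgeR adjusted p = 0.119). Without NT replicate 1 or without NT replicate 2 the direction stayed at A59 and A56 (log2 changes of 3.97 to 4.94), but edgeR then called 0 positions of AC120136.2, with 50 and 33 at an unadjusted p under 0.05, and A59 had an adjusted p of 0.0635 and 0.0619. Without DMS replicate 1 or 2, 9 and 3 positions were called, and without either CMCT library 10. A29 and A75 did not pass without any one of the 6 libraries.

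The C at position 3 had no RT stop listed in NT. It held 8616 and 35782 RT stops in DMS and 2707 and 1800 in CMCT, but 0 in both NT libraries. The neighbouring A1 had 1517 and 1516 in NT, and the U at position 2 had 229 and 229. These NT counts agree within 1 between the replicates, although the NT totals of the copy differ widely. The contrast with the neighbours in NT therefore has no replicate check. Taking 3 counts in the NT group as the limit that a count of 0 allows, its share was at least 6213-fold higher in DMS and at least 659-fold higher in CMCT (edgeR adjusted p = 0.0212 and 0.0479). The limit for DMS was 1643-fold without NT replicate 1, 2341-fold without DMS replicate 2 and 10324-fold without DMS replicate 1. For CMCT it was 174-fold without NT replicate 1, 438-fold without CMCT replicate 1 and 994-fold without CMCT replicate 2. All 45 copies were at 0 at position 3 in NT, and 15 of them had the reference counts there in every library within 1. Some other copies had 0 at position 3 in every library, DMS and CMCT included. Of these, ENSMUST00000122751, with C there, had 452 and 462 RT stops at position 1 in DMS. ENSMUST00000082838, with U there, had 6930 and 17061 at position 5 in DMS. Others held few, such as 6 and 22 in DMS in ENSMUST00000157873. A count of 0 there was thus not limited to NT. The fold limits assume that RT stops at position 3 could be listed in NT, which was not tested. One of the 15, ENSMUST00000083808, has U in place of C at that position and the same 8616 and 35782 RT stops in DMS. Without NT replicate 1, NT replicate 2 or DMS replicate 2, position 3 did not pass with DMS (edgeR adjusted p = 0.0786, 0.0761 and 0.0535), nor without either CMCT library (0.0609 and 0.0614).

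Fewer positions passed with CMCT. In AC120136.2 only C3 and G97 were higher in CMCT than in NT past the threshold and 6 were lower. Both are smaller shares of its tested positions than over all positions tested (5.64% and 5.32%). G97, in the stretch before the Sm run, rose from 0.0098% and 0.0169% of the RT stops to 0.122% and 0.06% (log2 change 2.80 ± 0.49, edgeR adjusted p = 0.0408). G97 also passed in ENSMUST00000101806 (3.15 ± 0.44, edgeR adjusted p = 0.0249) but not in ENSMUST00000082768 (2.35 ± 0.62, edgeR adjusted p = 0.0892). The loop of stem-loop I, made of 4 U, held 1.35% and 3.03% of the RT stops in NT, 0.789% and 1.08% in DMS, and 8.34% and 3.55% in CMCT. Both CMCT libraries were thus above and both DMS libraries below the NT libraries, but no single U passed: U17 came closest, with 0.2% and 0.354% in NT against 1.67% and 0.862% in CMCT (edgeR adjusted p = 0.057). U46, before stem-loop IIa, went from 0.184% and 0.272% to 1.46% and 2.92% (edgeR adjusted p = 0.0507). Of the lower positions, G118 in stem-loop III fell from 438 and 431 RT stops in NT to 38 and 30 in CMCT (log2 change -5.13 ± 0.70, edgeR adjusted p = 0.0236). The others were C141 and U142 in stem-loop III and C8, C21 and A26 in stem-loop I. At G118 the replicates differed by less than the square root of their sum in both NT and CMCT. That fall therefore has no replicate check. C3 and G97 did not pass with CMCT without any one of the 6 libraries (edgeR adjusted p = 0.0597 to 0.153 and 0.0737 to 0.170), and G97 did not pass without the positions whose replicates agree (0.0591). Without NT replicate 1, edgeR called 2 positions, both lower in CMCT. Without any other single library it called 0, with 24 to 45 at an unadjusted p under 0.05.

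**Figure D3:**
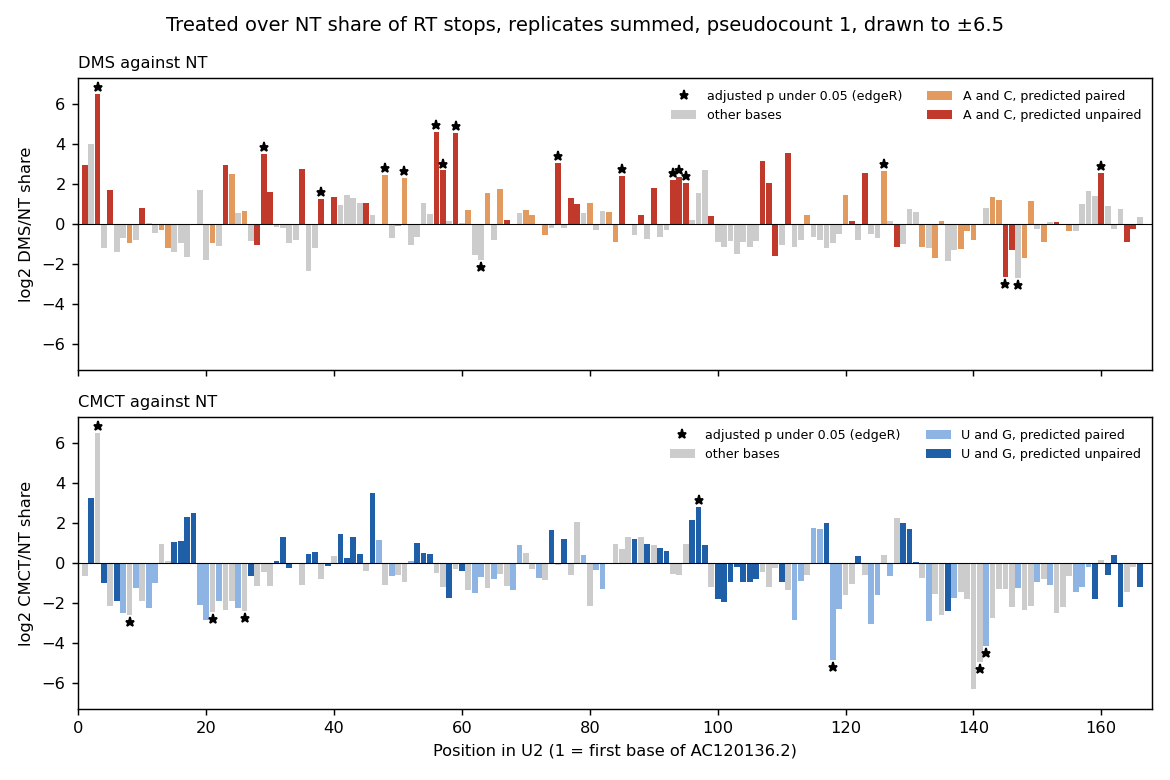
Log2 ratio of the treated to the NT share of RT stops at each position of AC120136.2 (replicates summed, pseudocount 1; colours give the bases each reagent prefers and the predicted pairing; stars, edgeR adjusted p under 0.05). Bars stop at 6.5, which cuts C3. The starred DMS rises are at A except for C3, and the loop positions 56, 57 and 59 stand out.

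The rises were read against a predicted fold. RNAfold was run on the parts before, between and after the GTAGTA motif and the Sm run, which were left unpaired, and it gave the 5 hairpins named I, IIa, IIb, III and IV after the known order of U2 hairpins. The 15 positions called higher with DMS were 12 of the 38 tested A and C predicted unpaired and 3 of the 30 predicted paired. Over all positions tested, 13.7% were called higher. Of A and C predicted unpaired, both DMS libraries exceeded both NT libraries at 19 of 38 tested positions, with a median log2 ratio of 1.75, and of those predicted paired at 8 of 30, with a median of 0.46. Over all positions tested in the transcriptome, of any base or pairing, both DMS libraries exceeded both NT libraries at 31.5%, and a share for A and C alone was not computed. For U and G under CMCT the counts were 20 of 46 unpaired (median log2 ratio 0.54) and 3 of 34 paired (median -1.26), beside 31.8% of all positions of any base. By base, A led under DMS (16 of 26 unpaired, 7 of 12 paired), whereas C was above NT at 3 of 12 unpaired and 1 of 18 paired positions. The unpaired set thus holds more A than C and the paired set fewer, so the pooled counts mix base with pairing. For A alone the shares unpaired and paired were close, with median log2 ratios of 2.39 and 1.52, and for C the medians were 0.91 and -0.45. Under CMCT, U was above NT at 19 of 38 unpaired positions and G at 1 of 8. The bases that a reagent does not prefer had median log2 ratios of -0.58 (DMS) and -0.59 (CMCT) where unpaired.

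A reactivity from 0 to 1 was formed at each position from the larger of the scaled DMS and CMCT log2 ratios. Of the 166 positions, 53 were highly reactive (above 0.7), and 43 of these, or 81.1%, were predicted unpaired, against 56.0% of all positions. With Winsorising over positions above 0 alone, 35 were highly reactive. The loops of stem-loops I, IIb and III were the most reactive regions, with mean reactivities of 0.914, 0.894 and 0.812, and all 4 U of loop I were highly reactive. The loop of III rested on few RT stops, with 0.0164% and 0.0479% of those of the copy in NT. Its position 131 had 18 over the 6 libraries. This reactivity sums the replicates. At U15 the share was 0.426% and 0.890% in NT and 1.875% and 0.652% in CMCT, so the second CMCT library was below the second NT library. The 43 positions outside the hairpins, the motif and the Sm run followed with 0.618, 23 of them highly reactive, and the loop of IIa with 0.579. The stems, taken as all bases of a hairpin outside its end loop, whether predicted paired or not, ranged from 0.133 in IV to 0.377 in IIa. That of IV was measured on its 5′ strand alone. The loop of IV had 0.335, measured at 8 of its 13 bases, 6 of which had fewer than 100 RT stops over the 6 libraries. The branch site motif, taken as unpaired, had 0.379, with 1 of its 6 bases highly reactive, close to the stem of IIa. The 7 bases of the Sm run all had a reactivity of 0, although they were taken as unpaired. The run as a whole held 0.312% and 0.549% of the RT stops in NT, 0.19% and 0.183% in DMS, and 0.234% and 0.104% in CMCT, below both NT libraries in each case. When the whole RNA was folded as 1 piece, which gave 57 pairs, 52.8% of the highly reactive positions were predicted unpaired, against 38.0% of all positions, so both shares depend on the fold.

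DMS replicate 2 had more RT stops near the 5′ end than replicate 1: positions 1 to 5 held 19.5% of the RT stops of AC120136.2 there, 4.41% in DMS replicate 1, and 0.888% to 2.77% in the NT and CMCT libraries. In the 3′ part, in contrast, many positions had nearly equal counts in the replicates. Among positions 101 to 166 with at least 20 RT stops, the 2 replicates differed by at most 1 count at 18 of 49 positions in NT, 19 of 56 in DMS and 17 of 44 in CMCT, against 2 of 99, 2 of 100 and 1 of 99 among positions 1 to 100. G147, for example, had 1233 and 1232 RT stops in NT, 454 and 453 in DMS, and 1166 and 1165 in CMCT. The library totals of the replicates differed by 1.11-fold in NT and DMS and 1.76-fold in CMCT. The edgeR fit counted both libraries also where the replicates agree to the count, so at least the calls at C141, G147 and A160 have no replicate check. What makes them equal was not tested.

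The same held across copies. In 21 of the 45 copies, all with 36312 RT stops or fewer, the replicates differed by less than the square root of their sum in all 3 groups, and in 15 of them by at most 1 count. ENSMUST00000083973 on chromosome X, whose 20 differences leave 80.5% of its RT stops at sites found once in mm9, had 2259 and 2256 in NT, 4403 and 4490 in DMS, and 9868 and 9866 in CMCT. Of all 13253 genes, 12.3% met the same rule. The differences of these 21 copies between treatments are therefore values without a replicate check.

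**Figure D4:**
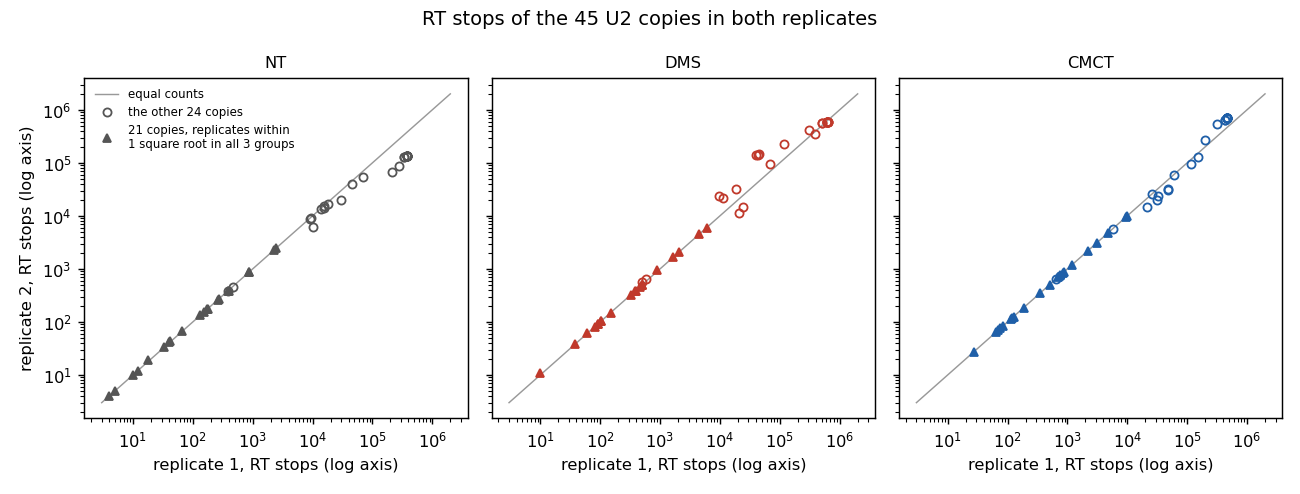
RT stops of the 45 copies in replicate 1 against replicate 2 of each group, on log axes (triangles, the 21 copies whose replicates agree; circles, the other 24; line, equal counts). The triangles lie on the line in all 3 groups, and the copies with the most RT stops lie below it in NT and above it in CMCT.

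Of the 13 copies as long as AC120136.2, 12 were not called higher with either reagent as whole RNAs. The exception was ENSMUST00000083973, called with CMCT (log2 change 1.66 ± 0.33, edgeR adjusted p = 0.00318), whose replicates agree. Without TMM scaling AC120136.2, AC120136.1 and ENSMUST00000101806 passed with DMS (edgeR adjusted p = 0.0391, 0.0391 and 0.0439), and 33 copies were called in place of 10. Per 1000000 RT stops, after TMM scaling, AC120136.2 had 2360 and 1128 in NT, 3234 and 3159 in DMS, and 1839 and 4621 in CMCT. Both DMS libraries were above NT, whereas 1 CMCT library lay between the NT values and the other above both. The log2 changes were 0.87 ± 0.56 for DMS (edgeR adjusted p = 0.269) and 0.89 ± 0.56 for CMCT (edgeR adjusted p = 0.269), and AC120136.1 gave 0.87 and 0.89 as well. Without NT replicate 1 the changes of AC120136.2 were 1.503 and 1.518, without NT replicate 2 they were 0.44 and 0.45, and for CMCT the value was 1.41 without CMCT replicate 1 and 0.08 without CMCT replicate 2, none past the threshold. ENSMUST00000101806 gave 0.81 ± 0.55 and 0.87 ± 0.55 (edgeR adjusted p = 0.297 and 0.271), with 0.40 to 1.39 and 0.07 to 1.44 over the libraries left out in turn. All copies summed into 1 feature gave log2 changes of 0.88 ± 0.60 with DMS and 0.86 ± 0.60 with CMCT (edgeR adjusted p = 0.299 and 0.310). A higher count of RT stops and more RNA cannot be told apart here.

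Of the 45 copies, 10 were called higher in DMS, beside 13.8% of all 13251 genes tested, and 17 in CMCT, beside 15.0%. The median log2 change of the copies was 0.81 in DMS and 0.89 in CMCT, against 0.01 and 0.11 over all genes. The replicates agreed as described in 7 of the 10 and 16 of the 17, so that only 4 calls rested on replicates that differ in at least 1 group. Without the features whose replicates agree, an alternative chosen after seeing the data, edgeR called 1 copy with DMS and 0 with CMCT, and 880 and 1168 of all genes. With DMS, 2 copies were called without either NT replicate, 6 without DMS replicate 1 and 4 without DMS replicate 2, and with CMCT 8 were called without NT replicate 1. Over all genes the 1832 called higher with DMS became 903 and 839 without NT replicate 1 and 2 and 1109 and 1008 without DMS replicate 1 and 2, and the 1985 with CMCT became 983 without NT replicate 1. Both DMS libraries were above both NT libraries for 34 copies (33.6% of all genes) and both CMCT libraries for 24 (37.6%), counts that include copies with the same sequence.

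With DMS the 3 such calls were ENSMUST00000083808 and ENSMUST00000122603, shown above, and ENSMUST00000122571. ENSMUST00000083808 had 18259 and 16912 RT stops in NT, 45685 and 145449 in DMS, and 47162 and 32742 in CMCT (log2 change for DMS 1.99 ± 0.52, edgeR adjusted p = 0.0140). ENSMUST00000122603 had 15430 and 15066 in NT and 42804 and 142770 in DMS (2.15 ± 0.53, edgeR adjusted p = 0.00979), and ENSMUST00000122571 had 13654 and 13501 in NT and 40668 and 141198 in DMS (2.28 ± 0.54, edgeR adjusted p = 0.00753). Their highest position was 1 and the next position 3, with the counts of AC120136.2 at position 3. At position 1 too their counts were close to those of AC120136.2, so the 3 calls are not independent of each other. In ENSMUST00000122571 the NT replicates differed by less than the square root of their sum. Positions 1 to 5 held 18.2% and 22.1% of the RT stops of ENSMUST00000083808 in NT and 60.7% and 79.7% in DMS. Without DMS replicate 2 their log2 changes were 0.75 to 0.95 and did not pass (edgeR adjusted p = 0.112 to 0.28), and without either NT replicate they did not pass either (0.106 to 0.138). Only 0.067% of the RT stops of ENSMUST00000083808 and 0.109% of those of ENSMUST00000122603 lay at positions found once in mm9. There the log2 changes were -0.25 and 1.15, and neither passed (edgeR adjusted p = 0.761 and 0.130). Without the features whose replicates agree, ENSMUST00000122571 was the copy still called (edgeR adjusted p = 0.049), and the pair shown above were not (0.0618 and 0.0541). With CMCT the call was ENSMUST00000083688 on chromosome X, with 10331 and 6284 RT stops in NT and 25662 and 25992 in CMCT (log2 change 1.22 ± 0.39, edgeR adjusted p = 0.0328), a call lost without the features whose replicates agree. Its highest position, G36, held 32.4% of its RT stops and had 2427 and 2428 in NT and 13012 and 13012 in CMCT.

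Among the copies whose replicates agree, the largest rises were in copies with few RT stops. ENSMUST00000104606 had 4 and 4 RT stops in NT, 93 and 93 in DMS, and 27 and 27 in CMCT, and its A51 alone had 1 and 1, 54 and 55, and 4 and 4. ENSMUST00000082616 had 5 and 5, 104 and 104, and 70 and 69. In ENSMUST00000122720, C36 held 90.4% of the RT stops, with 8 and 8 in NT, 6 and 6 in DMS, and 80 and 80 in CMCT. ENSMUST00000157527 and ENSMUST00000158317 had 173 and 174, and 12 and 12, in NT, and 1207 and 1206, and 76 and 77, in CMCT. U37, the leading position of AC120136.2, also led in the diverged copy ENSMUST00000083973 (138 and 138 RT stops in NT, 131 and 130 in DMS, 1498 and 1497 in CMCT), whereas A1 led in ENSMUST00000083298 and C5 in ENSMUST00000082838. Over the positions of ENSMUST00000083973, the Spearman correlation of its RT stops with those of AC120136.2 was 0.439 in NT (163 positions), 0.376 in DMS and 0.525 in CMCT, and it was 0.949 to 0.978 for the copies with 3 differences, which share most of their sequence with AC120136.2.

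**Figure D5:**
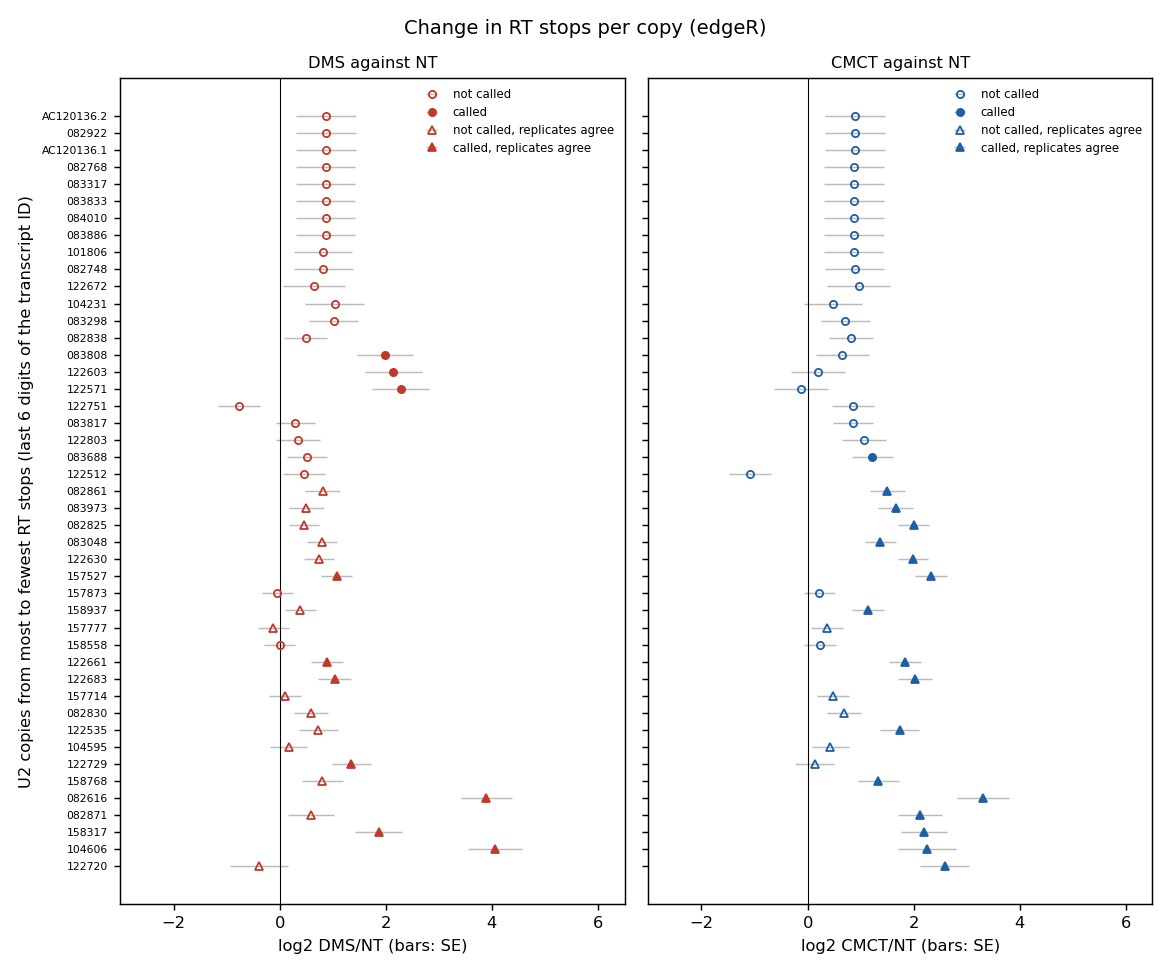
Log2 change in RT stops of each copy with DMS and with CMCT (edgeR; bars, SE; filled, adjusted p under 0.05; triangles, copies whose replicates agree), ordered from most to fewest RT stops. The 10 copies at the top, which are nearly identical, sit together between 0.81 and 0.89 without a call, and the calls fall among copies with fewer RT stops.

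The RNA-seq library, in which 1 read can be listed at several places, had alignments at 24 of the 44 copies with coordinates. AC120136.2 had 158099 of the 31857551 alignments, 142911 of them listed on the opposite strand, AC120136.1 had 156988 and ENSMUST00000082768 had 154259. ENSMUST00000101806 had 28666 and ENSMUST00000082748 had 4750, whereas in CIRS-seq they held 2589470 and 2588705 RT stops, against 2906091 in AC120136.2. Of the 20 copies with coordinates called higher with DMS or CMCT, 13 had 0 alignments, ENSMUST00000104606, ENSMUST00000082616 and ENSMUST00000083808 among them, and none had more than 6. With 1 library these values have no replicate error.

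Of 26 listed genes for proteins of the U2 particle or factors associated with it, 25 were tested. With DMS 1 was higher and 1 lower, beside 13.8% and 12.5% of all genes, and with CMCT 4 were higher, beside 15.0%, and 0 lower, beside 1850 of the 13251 genes. Snrpf, which encodes SmF, was higher in DMS (1004 and 685 RT stops in NT, 2100 and 3412 in DMS, log2 change 1.28 ± 0.30, edgeR adjusted p = 0.00748), and Snrpb, which encodes SmB, was lower (2941 and 2194 against 2224 and 1905, -0.76 ± 0.24, edgeR adjusted p = 0.0343), with a list median of -0.04. The 4 higher in CMCT (list median 0.39) were Sf3b1 and Sf3a2, of the complexes that hold U2 on the branch site, with log2 changes of 0.83 ± 0.27 and 0.82 ± 0.26, and Ddx46 and Sf3a3 with 0.71 ± 0.23 and 0.71 ± 0.24 (edgeR adjusted p = 0.0315 to 0.0428 for the 4).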

How the data were processed

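CIRS-seq counts of RT stops were analysed in 6 libraries (NT, DMS and CMCT, 2 replicates each), with 1 RNA-seq library. The authors mapped the reads to mm9 carrying E14 variants and deposited raw counts per transcript position, placed on the modified base, without normalization. The submitters' processing notes name Bowtie 1.0.0, bedtools 2.17.0, FastQC 0.10.1 and TopHat2 2.0.6. Handling of reads with several places is not given in the sources used here. The RNA-seq file, deposited by the authors, lists single alignments, and those with at least 50% of the read inside a copy were counted.

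Counts were summed once per gene position and tested with edgeR 4.0.16 in R 4.3.3 (quasi-likelihood test, TMM scaling, filterByExpr, 6 libraries in 1 fit, Benjamini-Hochberg adjusted p under 0.05 over all 13251 genes). The 45 copies were kept as separate features. Positions with at least 100 RT stops over the 6 libraries (471702) were tested with the total of their gene as offset. Log2 ratios for the reactivity used a pseudocount of 1, negative values were set to 0, and values were Winsorised at the 90th percentile, with 0.3 and 0.7 as class limits. Pairing came from RNAfold 2.7.2 and positions found once from 25-base matches in mm9. Alternatives included DESeq2 1.42.0, no TMM scaling, no filter, a replicate block, each library left out, the positions found once, and the summed copies. Intervals and limits cover counting error only.

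The members and lists were chosen with earlier results of these data known. Named copies were AC120136.1, AC120136.2, ENSMUST00000101806, the copies with the most RT stops, and the 5 with the largest change each way among those called. Named positions were the 5 with the largest share and the 5 with the largest rise, and features such as the motif. Others (ENSMUST00000082748, ENSMUST00000083298, ENSMUST00000082838, ENSMUST00000083688, ENSMUST00000083973 and single positions) were chosen after their values were seen.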

Additional observations from a re-analysis of the deposited data

How the results depend on the processing

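The 10 copies called with DMS became 33 without TMM scaling, which moved the median log2 change of all genes to 0.54 and the genes called higher from 1832 to 4048, and AC120136.2 then passed (1.37, edgeR adjusted p = 0.0391). Summed into 1 feature the copies were not called in either comparison (0, edgeR unadjusted p = 0.167 and 0.173). Without the features whose replicates agree, an alternative chosen after seeing the data, 1 copy was called with DMS and 0 with CMCT by edgeR, with 3 and 3 at an unadjusted p under 0.05. DESeq2 called 10 and 18. Leaving out each library gave 2 to 13 copies with DMS and 8 to 20 with CMCT. Of the positions of AC120136.2, 18 called with DMS became 39 with the library size as offset and 11 with at least 1000 RT stops, and 0 to 10 with each library left out. The 8 called with CMCT became 21, 3 and 0 to 2, and 4 without positions whose replicates agree. The share of highly reactive positions predicted unpaired was 80% with a pseudocount of 5, 82.9% with the other Winsorising, 76.3% to 77.8% from 1 replicate and 52.8% with the full-length fold (chosen after seeing the data). At positions found once in mm9, the DMS change of ENSMUST00000083808 turned to -0.25 and the CMCT change of AC120136.1 to -0.71, neither past the threshold. The causes were not tested. Of 252 alternative values for named copies and positions, 190 kept their direction and side of the threshold. Another 57 kept the direction but no longer passed, 3 passed only in the alternative, and 2 changed direction. The 190 include values of AC120136.1, AC120136.2 and ENSMUST00000101806, which passed in neither main comparison and stayed uncalled. Equal replicates and reads shared between copies limit what the depth can show.

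The labels give the replicates a shared number and nothing more. Over 12225 genes the deviations of same-numbered replicates correlated by 0.587 (NT and DMS), -0.007 (NT and CMCT) and -0.100 (DMS and CMCT), and over 471702 positions by 0.527, 0.232 and 0.090, so they were not taken as pairs in all 3 groups. With the replicate block, 13 copies were called with DMS and 20 with CMCT, and 13 and 4 positions. With the block C3 and A75 did not pass with DMS (edgeR adjusted p = 0.0528 and 0.0599), nor C3 and G97 with CMCT (0.0941 and 0.0741).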

Other observations

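Per base of the entry with the most RT stops and per 1000000 RT stops, the U2 copies had 9.13 ± 4.56 (SD, n = 2) in NT, 16.7 ± 0.276 in DMS and 16.9 ± 10.3 in CMCT. U1 had 27.1 ± 1.55 in NT and 5.34 ± 0.489 in DMS, and U6 had 1.66 ± 0.397 in NT and 6.40 ± 1.90 in CMCT. U12, of the minor spliceosome, had 0.0846 ± 0.0342 in NT. These values were not tested.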
